A study of Mus musculus with 4 samples.

Results

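Accessibility at 9 mouse genes of the complement system was examined in lymph node fibroblastic reticular cells (FRCs), in mice with Ccl19-Cre and floxed Notch2 and in littermates without Cre. The genes, taken from a list of complement components, regulators and receptors, were C1ra, C1s1, C4b, C3, C7, Serping1, Clu, Cr1l and Cr2. They held 29 of the 110110 accessible regions in the data, of which 95449 had a gene. A region is a run of deposited windows of up to 300 bp lying no more than 100 bp apart, represented by its window of highest summed count. It was given the protein-coding RefSeq gene over its midpoint or, failing that, the nearest within 100000 bp. All 29 passed the minimum of 10 summed counts. The gene given to a region is thus a neighbour, not a known target.

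ATAC-seq, in which a transposase cuts adapters into open DNA, was run on FRCs, the fibroblasts that form the scaffold of the node and feed and guide lymphocytes. The first genotype, Notch2_cKO, carried Ccl19-Cre together with Notch2 fl/fl, and the second, control, was formed by Notch2 fl/fl littermates without the Cre, so the floxed allele is common to both. There were 2 libraries per genotype, each a pool of 6 female C57BL/6 mice aged 12 weeks, taken from brachial, axillary and inguinal nodes. The 50000 cells per library were a flow sort of BP3-high cells with podoplanin and without CD31 or CD45. Recombination is driven by Ccl19-Cre and so reaches the cells with a history of Ccl19 promoter activity, which need not be every sorted cell.

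Complement is a cascade of plasma and tissue proteases. The classical arm starts when the C1 complex, with its proteases C1r and C1s, cuts C4 and C2, and all arms meet at C3, whose fragments tag surfaces. Downstream, C5b recruits C6, C7, C8 and C9 into a pore, while C1 inhibitor, clusterin and membrane proteins such as CD46 and CD55 hold the cascade in check. In lymphoid organs, fibroblasts are a local source of several components, and receptors such as CR2 (CD21) on follicular dendritic cells and B cells retain complement-coated antigen. In mouse B cells Cr2 is known as a gene responsive to Notch2, which acts on DNA through its partner RBPJ.

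The promoters of Cr2, its neighbour Cr1l, and C7 are shown because Cr2 is the only gene with a matched promoter whose start region passed the test, Cr1l adjoins it, and C7 differed upstream of its start while its start region did not pass. Each runs 5′ to 3′ from 250 bases before to 50 bases after the RefSeq start (GRCm38.p6, the assembly of mm10). Capitals mark matches on either strand to TGGGAA (the core bound by RBPJ), GGG and CC with any 5 bases between them (NF-kappaB), TTCNNNGAA (STAT), TTGCNNCAA (C/EBP) or TGANTCA (AP-1). Cr2 lies at chr1:195176670-195176969 on the minus strand, Cr1l at chr1:195131521-195131820 on the minus strand, and C7 at chr15:5063724-5064023 on the minus strand.
Cr2: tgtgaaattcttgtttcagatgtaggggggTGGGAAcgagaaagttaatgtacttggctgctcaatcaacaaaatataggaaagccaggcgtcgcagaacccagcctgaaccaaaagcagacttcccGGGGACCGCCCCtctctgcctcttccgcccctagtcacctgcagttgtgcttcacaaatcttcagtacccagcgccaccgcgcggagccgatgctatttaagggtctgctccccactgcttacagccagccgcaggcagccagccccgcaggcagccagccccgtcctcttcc
Cr1l: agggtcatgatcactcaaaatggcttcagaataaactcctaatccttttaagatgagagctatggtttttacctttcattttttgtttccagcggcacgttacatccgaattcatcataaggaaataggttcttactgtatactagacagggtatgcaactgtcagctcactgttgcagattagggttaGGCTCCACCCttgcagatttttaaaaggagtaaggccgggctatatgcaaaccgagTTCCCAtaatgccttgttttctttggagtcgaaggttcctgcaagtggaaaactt
C7: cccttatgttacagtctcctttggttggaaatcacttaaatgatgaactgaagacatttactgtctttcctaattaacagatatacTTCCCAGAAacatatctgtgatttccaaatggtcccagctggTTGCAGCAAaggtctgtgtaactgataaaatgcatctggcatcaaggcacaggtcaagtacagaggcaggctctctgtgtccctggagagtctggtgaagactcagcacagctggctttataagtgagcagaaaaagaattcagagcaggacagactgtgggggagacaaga
The Cr2 promoter held an RBPJ core whose first base is 220 bases before the start, and 3 overlapping NF-kappaB matches from 123, 122 and 121 bases before it. Cr1l had an RBPJ core from 5 bases and an NF-kappaB match from 61 bases before its start. C7 had an RBPJ core and a STAT match that overlap, both from 164 bases before the start, and a C/EBP match from 122 bases before it. These letters are common: of 27025 mouse promoters of the same length, 25.5% held the RBPJ core, 50.4% the NF-kappaB motif, 8.47% the STAT, 2.12% the C/EBP and 7.93% the AP-1 motif. A match is a run of letters and not evidence of binding.

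Promoter sequences were matched for 6 of the 9 genes, with 2 for C1s1. The C1ra promoter held an RBPJ core from 9 bases before the start and a STAT match from 32 bases after it. The C3 promoter held 4 NF-kappaB matches, from 197, 196, 33 and 10 bases before the start, and none of the other motifs. The 2 C1s1 promoters overlap and share an NF-kappaB match, and the second also held an RBPJ core from 35 bases after its start.

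C1ra and C1rb are neighbouring near-copies, as are C1s1 and C1s2, and reads in matching stretches could have been split between them. The stretch at the start of the first pair that aligns without gaps is shown to let the reader judge how alike they are, with differing bases in capitals, on the plus strand at chr6:124512522-124512670 for C1ra and chr6:124570180-124570328 for C1rb.
C1ra: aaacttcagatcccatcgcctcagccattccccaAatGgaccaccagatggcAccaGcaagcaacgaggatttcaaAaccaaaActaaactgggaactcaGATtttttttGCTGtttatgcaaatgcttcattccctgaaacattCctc
C1rb: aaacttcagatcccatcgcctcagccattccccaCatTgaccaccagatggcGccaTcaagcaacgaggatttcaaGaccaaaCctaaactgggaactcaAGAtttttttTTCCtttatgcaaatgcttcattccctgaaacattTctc
Over its 149 bases the pair differs at 14 and is 90.6% identical. The same search of the first C1s1 promoter against that of C1s2 found a stretch of only 8 bases. The sources used here do not say how reads with several matches were treated, so values of C1ra, C1rb, C1s1, C1s2 and C4b, which has the transcribed pseudogene C4a as a near-copy, are uncertain to that extent.

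Best-window counts summed to 30260067 and 12340742 in Notch2_cKO 1 and 2, and to 23629588 and 25740366 in control 1 and 2. At Notch2 itself, the region at the start had 1636 and 542 counts in Notch2_cKO and 1361 and 1527 in control (log2 -0.14, SE 0.10, edgeR adjusted p = 0.34). The floxed exons are not named in the labels, so this does not check the deletion. All pools are labelled female, yet the library labelled control 2 had 221 counts at Ddx3y and 201 at Eif2s3y, Y-chromosome genes at 0 counts in the other 3 libraries. Where leaving out that library changed the call of a named region, the value without it is given beside the call.

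Levels below are normalized CPM of the best window, reads scaled by library depth and a loess trend, and so have the same length for every region. Differences are log2 of Notch2_cKO over control with a standard error (SE) from edgeR's quasi-likelihood test on all 110110 regions, and a region passed when its Benjamini-Hochberg adjusted p was under 0.05. The p-values rest on the spread between 2 pools per genotype and on spread that edgeR shares across all regions or genes fitted. An exact permutation test of 2 against 2 cannot go below 0.333. Fewer cells of a type and less open DNA per cell cannot be told apart in such pools. Whether a region inside a gene is exonic or intronic was not determined here.

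Of the 29 complement regions, 7 were lower and 1 was higher in Notch2_cKO, and 21 did not pass. The lower regions belonged to C1ra, C1s1, C7, Serping1, Clu (2 regions) and Cr2, and the higher one to Clu. The share lower was 24.1%, where 11.3% of all regions were lower, and the share higher was 3.45%, where 12.4% of all regions were higher. The median log2 difference was 0.01 over the members and 0.01 over all regions. With each library centred on its median log2 count instead of loess, which put the median of all regions at -0.09, 9 members were lower and 0 higher. Differences ranged from -1.01 to 0.73. In the plots, regions of a gene are numbered in the direction of transcription where the promoter table gives it, and otherwise by coordinate.

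**Figure D1:**
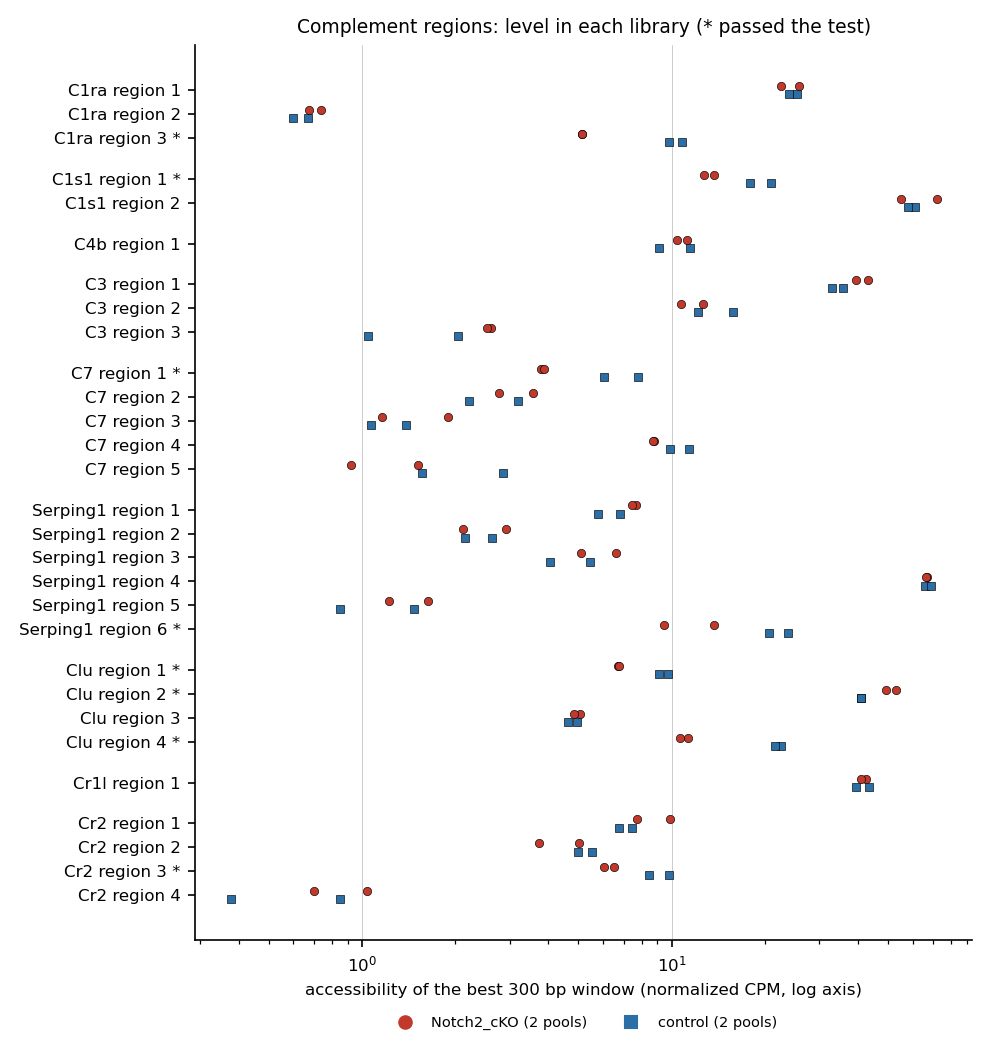
Normalized CPM of the best window of each of the 29 complement regions on a log axis, with Notch2_cKO libraries as red circles and control libraries as blue squares, and an asterisk at the 8 regions that passed the test. The levels run from under 1 CPM to about 70 CPM, and the regions of highest level, at the ends of Serping1, C1s1, Clu, Cr1l and C3, include both regions whose libraries overlap (Serping1, C1s1, Cr1l) and regions whose circles all lie above the squares (Clu region 2, which passed, and C3 region 1, which did not).

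Most of the lower regions lay away from the ends of the genes, as did most of the members (19 of 29). Of the 10 members that lay at most 1000 bp from either end of their gene, 1 was higher and 2 were lower (20%). Of the 19 elsewhere none was higher and 5 were lower (26.3%). Among the 13447 regions of the whole table this near to a gene end, 5.74% were higher and 4.53% lower. Whether gene-end members differ from the other members was not tested.

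By highest level per gene, the order was Serping1, C1s1, Clu, Cr1l, C3, C1ra, C4b, C7 and Cr2. The top region of Serping1 spanned 65.7 to 68.5 CPM over the 4 libraries and that of C1s1 55.1 to 71.7 CPM, so these neighbours overlapped. The top regions of Clu (40.8 to 53.1 CPM), Cr1l (39.4 to 43.4 CPM) and C3 (33 to 42.9 CPM) each overlapped the next, while C1ra (22.5 to 25.8 CPM) stood clear of its neighbours. C4b (9.13 to 11.5 CPM), C7 (8.73 to 11.4 CPM) and Cr2 (6.75 to 9.86 CPM) overlapped as well.

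At C1ra and C1s1, genes of the proteases that start the classical arm, 1 region each was lower in Notch2_cKO, away from the start. C1ra encodes a C1r protease, which activates C1s. A region inside the gene and 9679 bp downstream of the start (chr6:124521951-124522600), had 5.12 and 5.12 CPM in Notch2_cKO, against 10.8 and 9.78 CPM in control. The 2 Notch2_cKO pools were equal at this rounding and stood at 0.497 times control, with no overlap. The log2 difference was -1.01 (SE 0.16, edgeR adjusted p = 0.000146), from 158 and 66 counts in Notch2_cKO and 244 and 248 in control.

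At the C1ra start the genotypes overlapped. The start region (chr6:124512351-124513000) had 22.5 and 25.8 CPM in Notch2_cKO and 23.9 and 25.4 CPM in control (log2 -0.04, 95% interval -0.29 to 0.22, edgeR adjusted p = 0.857). It is the gene's most accessible region. The remaining C1ra region, 3579 bp into the gene, was under 1 CPM in every library and did not pass.

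C1s1 encodes a C1s protease, which cuts C4 and C2. Its upstream region, 2291 bp before the start (chr6:124544301-124544950), had 13.7 and 12.7 CPM in Notch2_cKO, against 21 and 17.9 CPM in control. Both Notch2_cKO pools were below both controls, with a log2 difference of -0.55 (SE 0.14, edgeR adjusted p = 0.00666). Without control replicate 1 the difference was -0.46 and did not pass (edgeR adjusted p = 0.133). The region at the C1s1 start (chr6:124542201-124542900) had 55.1 and 71.7 CPM in Notch2_cKO and 61.2 and 57.9 CPM in control, and the Notch2_cKO pools lay on either side of the controls. Its log2 difference was 0.08 (95% interval -0.15 to 0.31, edgeR adjusted p = 0.658), and it reached 0.28 without Notch2_cKO replicate 1 (edgeR adjusted p = 0.0105).

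C4b encodes C4, the substrate of C1s. Its only region, at the gene's end (chr17:34743651-34744300), had 11.2 and 10.4 CPM in Notch2_cKO and 9.13 and 11.5 CPM in control. The genotypes overlapped, and the log2 difference of 0.07 (95% interval -0.25 to 0.40) did not pass (edgeR adjusted p = 0.789).

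C3, the protein on which all arms converge, had 3 regions, none of which passed. The start region (chr17:57227701-57228400) had 39.4 and 42.9 CPM in Notch2_cKO, against 33 and 35.6 CPM in control. The pools did not overlap, but the log2 difference of 0.26 (95% interval 0.04 to 0.48) missed the threshold after adjustment (edgeR adjusted p = 0.0845). Without Notch2_cKO replicate 1 it was 0.33 and passed (edgeR adjusted p = 0.0132), while the other libraries left out in turn gave 0.20 to 0.31 without passing, and median centring gave 0.07. The other regions, 8736 bp into the gene and beyond its far end, differed by -0.28 and 0.73. The distal one held 2.62 and 2.53 CPM in Notch2_cKO and 1.05 and 2.05 CPM in control, an edgeR adjusted p of 0.0637. The size of that difference depended on single control libraries: it was 0.34 without control replicate 1 (edgeR adjusted p = 0.546) and 1.31 without control replicate 2 (edgeR adjusted p = 0.00449). It was 0.67 without Notch2_cKO replicate 1 (edgeR adjusted p = 0.173) and 0.73 without Notch2_cKO replicate 2 (edgeR adjusted p = 0.0372).

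C7, a component of the membrane attack complex, was lower upstream of its start. The region 5427 bp before the start (chr15:5069001-5069600) had 3.79 and 3.86 CPM in Notch2_cKO, against 7.79 and 6.05 CPM in control. The Notch2_cKO pools were close together and below both controls (log2 -0.85, SE 0.19, edgeR adjusted p = 0.00226). The region at the start (chr15:5063551-5064150), which contains the promoter printed above (277 of its bases lie in the best window), had 3.58 and 2.77 CPM in Notch2_cKO and 2.21 and 3.19 CPM in control. There the genotypes overlapped (log2 0.27, 95% interval -0.21 to 0.75, edgeR adjusted p = 0.438).

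The most accessible C7 region lay inside the gene (chr15:5009551-5010200). It had 8.78 and 8.73 CPM in Notch2_cKO, against 11.4 and 9.9 CPM in control, without overlap but also without passing (log2 -0.28, edgeR adjusted p = 0.201). Another internal region, 60073 bp downstream of the start, differed by -0.76 and missed the threshold (edgeR adjusted p = 0.0852). It passed at -1.29 without Notch2_cKO replicate 1 (edgeR adjusted p = 0.0181) and at -1.11 without control replicate 1 (edgeR adjusted p = 0.00678). It was -0.19 without control replicate 2 (edgeR adjusted p = 0.816), and -0.57 without Notch2_cKO replicate 2 (edgeR adjusted p = 0.147).

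The soluble regulators had the most accessible member region and the member region of smallest p. Serping1 encodes C1 inhibitor, which inactivates C1r and C1s. Its region at the gene's end (chr2:84774651-84775250) had 66.6 and 66.3 CPM in Notch2_cKO and 65.7 and 68.5 CPM in control, overlapping values with a log2 difference of -0.01 (95% interval -0.20 to 0.17, edgeR adjusted p = 0.931). This value depended on the scaling: it was -0.21 under TMM and -0.30 under median centring, where it passed as lower (edgeR adjusted p = 0.0469). A region 8656 bp outside the gene (chr2:84783801-84784400) had 9.45 and 13.7 CPM in Notch2_cKO, against 23.8 and 20.6 CPM in control. Both Notch2_cKO pools were lower, by a log2 difference of -0.99 (SE 0.16, edgeR adjusted p = 0.000152). The next nearest gene, Ube2l6, was 14728 bp from it. The other 4 Serping1 regions differed by 0.00 to 0.35 and did not pass.

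Clu encodes clusterin, a secreted chaperone that also blocks assembly of the membrane attack complex, and its regions differed in opposite directions. The region inside the gene near its higher-coordinate end (chr14:65980701-65981400) had 11.3 and 10.6 CPM in Notch2_cKO, against 22.5 and 21.5 CPM in control. The values of each genotype lay close together, and Notch2_cKO was lower (log2 -0.99, SE 0.14, edgeR adjusted p = 2.4e-05). The region at the other end of the gene (chr14:65968301-65968950) had 53.1 and 49.3 CPM in Notch2_cKO, against 40.8 and 40.9 CPM in control. It was higher in Notch2_cKO without overlap (log2 0.33, SE 0.10, edgeR adjusted p = 0.0175).

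The rise at Clu was the less stable of the pair. It did not pass under 8 of 15 alternative settings, among them TMM scaling (0.20, edgeR adjusted p = 0.196) and each control library left out (edgeR adjusted p = 0.22 and 0.216). A second lower region, 1533 bp outside the gene (chr14:65966651-65967250), had 6.73 and 6.76 CPM in Notch2_cKO, against 9.72 and 9.11 CPM in control (log2 -0.48, SE 0.16, edgeR adjusted p = 0.0318). It did not pass under 6 of the 15, with an edgeR adjusted p of 0.114 once Notch2_cKO 1 was left out, 0.191 once control 1 was and 0.101 once control 2 was. The fourth Clu region, inside the gene, differed by 0.06.

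**Figure D2:**
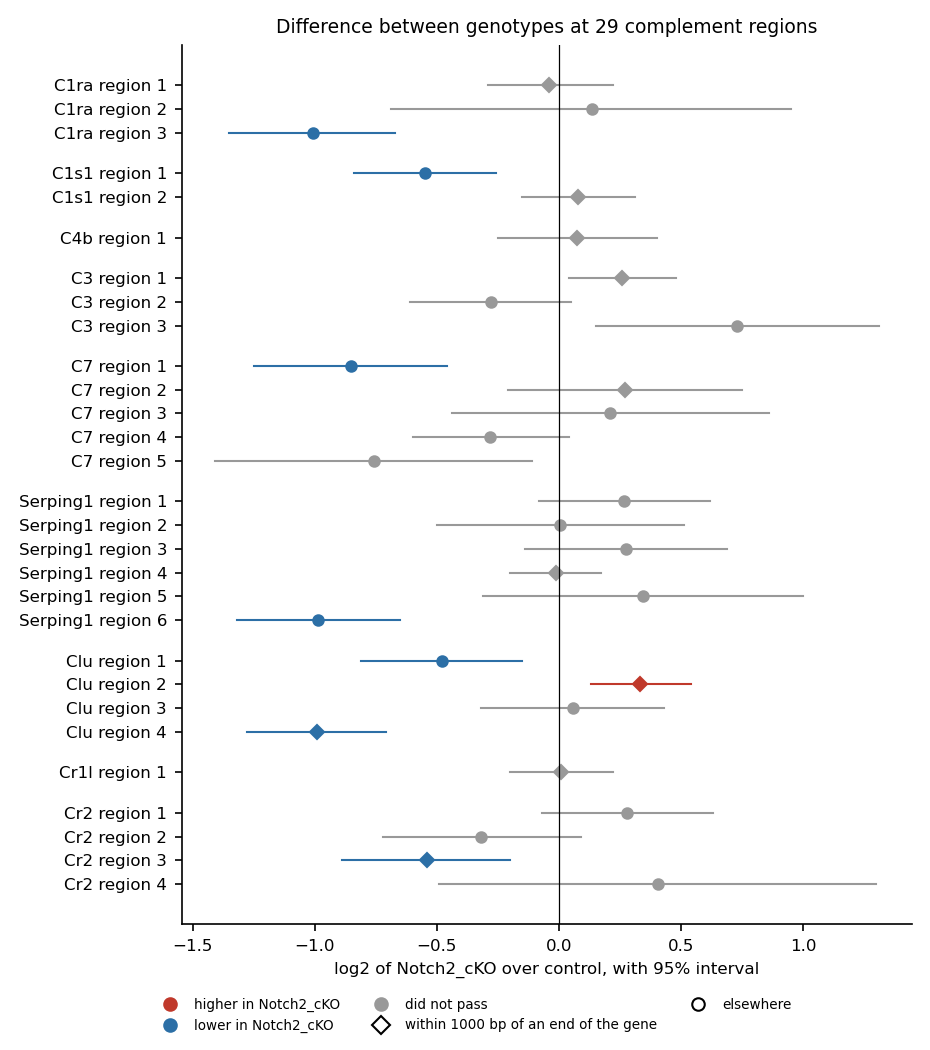
Log2 difference of Notch2_cKO over control at the 29 complement regions, with 95% intervals; diamonds lie within 1000 bp of an end of the gene and circles elsewhere. The 7 lower regions (blue) lie between -1.01 and -0.48, and the higher one (red) at 0.33.

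The cell-surface genes sit side by side on chromosome 1. Cr1l encodes Crry, the mouse regulator that limits C3 deposition on cells, and its only region (chr1:195130851-195131650), at the start, had 42.3 and 40.9 CPM in Notch2_cKO and 43.4 and 39.4 CPM in control. The best window that gives these levels lies downstream of the printed Cr1l promoter and shares 0 bases with it. The genotypes overlapped, with a log2 difference of 0.01 (95% interval -0.20 to 0.22, edgeR adjusted p = 0.962). Cr2 encodes complement receptor 2, which binds C3 fragments, and in mice also the longer receptor CD35.

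The Cr2 start region was lower in Notch2_cKO. It spans the promoter printed above (chr1:195176451-195177050) and had 6.06 and 6.52 CPM in Notch2_cKO, against 9.77 and 8.44 CPM in control. The best window that gives these levels shares 181 bases with that promoter and does not reach its RBPJ core. Neither Notch2_cKO pool reached the controls (log2 -0.54, SE 0.16, edgeR adjusted p = 0.0205). The difference missed the threshold without Notch2_cKO replicate 1 (-0.46, edgeR adjusted p = 0.118), without control replicate 1 (-0.45, edgeR adjusted p = 0.198) and in DESeq2 (adjusted p = 0.119). The other Cr2 regions did not pass. The most accessible of them, 55870 bp from the gene (chr1:195232501-195233100), had 7.74 and 9.86 CPM in Notch2_cKO and 6.75 and 7.42 CPM in control (log2 0.28, edgeR adjusted p = 0.254).

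Cr2 marks follicular dendritic cells and B cells, whose other markers were examined beside it. On the B cell list, 5 of 8 genes had a region. Of its 44 regions, 10 were lower (22.7%) and none was higher, where 11.3% of all regions were lower and 12.4% higher. The summed level was 191.3 and 181.0 CPM in Notch2_cKO, against 217.5 and 214.8 CPM in control. Bank1 held 5 of the lower regions, Pax5 2, Ms4a1 2, Blk 1 and Cd22 none. Ms4a1, which encodes CD20, had 1.53 and 1.45 CPM over its 2 regions in Notch2_cKO, against 4.31 and 3.54 CPM in control. The sum of Blk went the other way, with 56.1 and 57.1 CPM in Notch2_cKO, against 54.4 and 46 CPM in control. With a library left out, the B cell list had 0 to 2 regions higher and 4 to 9 lower, with the fewest lower (4) without control replicate 1 and 6 lower without control replicate 2. One of the 2 Ms4a1 regions did not pass without control replicate 1 (-0.80, edgeR adjusted p = 0.228). On the follicular dendritic cell list, which includes Cr2, 9 of 10 genes had a region. The list summed to 803.8 and 863.3 CPM in Notch2_cKO, against 756.6 and 762.2 CPM in control. Enpp2 had 7 regions higher and 4 lower, Sox9 had 6 higher and Tnfsf11 2 higher. Cr2, Madcam1 and Mfge8 had 1 lower each, and none of the 21 Cxcl13 regions passed, nor any of Coch or Fcgr2b. Over the list, 15 of 84 regions were higher (17.9%) and 7 lower (8.33%). Those counts were 6 higher and 3 lower without control replicate 2, and 9 higher and 3 lower without control replicate 1. The part of either cell type in the Cr2 value was not tested.

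The other lists were checked in the same way. Of all regions, 12.4% were higher and 11.3% lower, and on the reticular fibroblast list 11.8% and 10.4% were. The shares higher and lower were 0% and 15.4% (lymphatic endothelial), 0% and 37.5% (T cell) and 10% and 0% (macrophage and monocyte). They were 13.7% and 7.84% (blood endothelial) and 8% and 12% (mural). Reticular fibroblast markers, Bst1 (BP3) and Pdpn of the sort included, had regions at 12 of 12 genes, with 17 of 144 higher and 15 lower, and summed to 1269 and 1391 CPM in Notch2_cKO and 1323 and 1309 CPM in control. Lymphatic endothelial markers had 8 of 52 regions lower and none higher (234.7 and 251.0 CPM in Notch2_cKO, 289.6 and 276.7 CPM in control). Reln held 6 of the 8 (63.1 and 74.7 CPM in Notch2_cKO, 109.7 and 102.0 CPM in control), and Mmrn1 and Stab2 held 1 each. T cell markers had 3 of 8 regions lower and none higher (27.2 and 28 CPM in Notch2_cKO, 33.4 and 35.5 CPM in control). All 3 belonged to Themis (10.7 and 13.1 CPM in Notch2_cKO, 19.3 and 19.8 CPM in control). Macrophage and monocyte markers had 2 of 20 regions higher and none lower (124.3 and 126.2 CPM in Notch2_cKO, 137.0 and 128.3 CPM in control). Blood endothelial markers had 7 of 51 higher and 4 lower (251.4 and 226.8 CPM in Notch2_cKO, 216.7 and 217.3 CPM in control), and mural markers 4 of 50 higher and 6 lower (325.4 and 338.6 CPM in Notch2_cKO, 343.6 and 336.0 CPM in control). Once control 2 was left out, these lists had 17 regions higher and 9 lower (reticular fibroblast), 1 and 7 (lymphatic endothelial), 0 and 1 (T cell), 1 and 1 (macrophage and monocyte), 7 and 1 (blood endothelial), and 4 and 3 (mural). No list was tested as a set, and the part of these cells in the complement values was not tested.

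Within each of the 8 regions that passed, every overlapping window lay on the same side: all windows of the 7 lower regions had both Notch2_cKO pools below both controls, and all 8 windows of the higher Clu region had them above. Such windows share reads and are not independent. Over best windows, 9 of the 29 members lay wholly below and 6 wholly above, where 29.8% and 30% of all regions did.

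**Figure D3:**
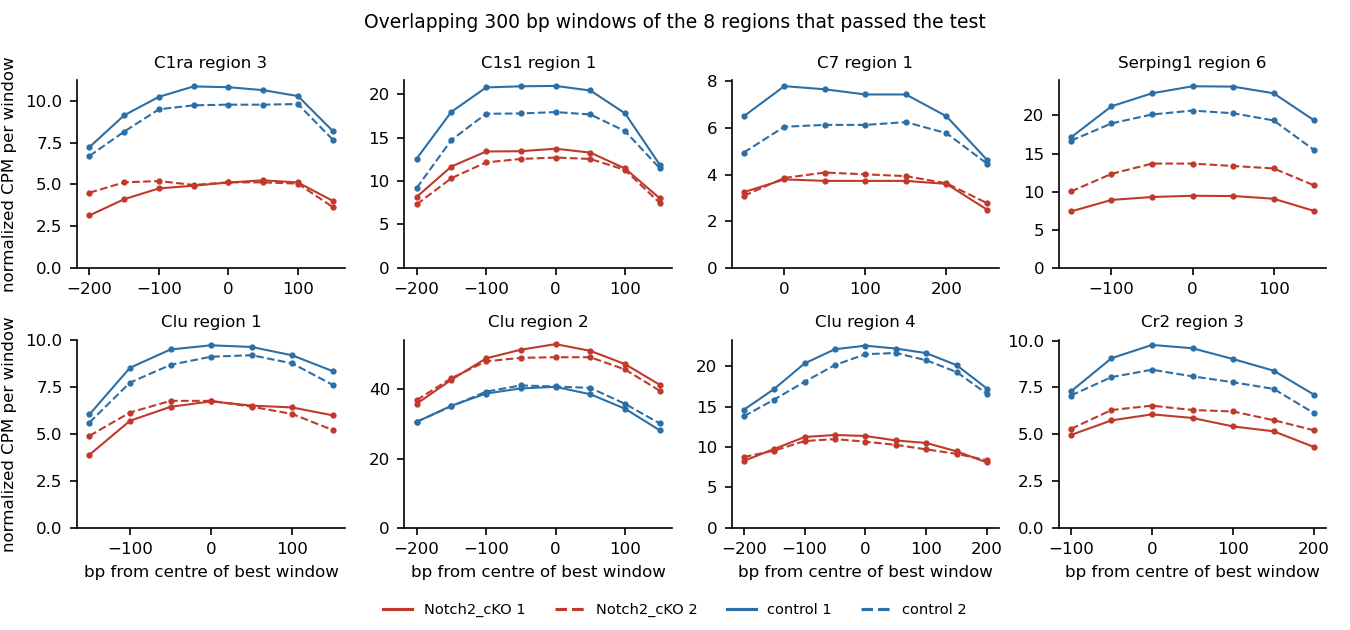
Normalized CPM of each overlapping 300 bp window against its distance in bp from the centre of the best window, for the 8 regions that passed, with Notch2_cKO pools in red and control pools in blue. The red lines stay below the blue ones across C1ra region 3, C1s1 region 1, C7 region 1, Serping1 region 6, Clu regions 1 and 4 and Cr2 region 3, and above them across Clu region 2.

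Summed over all regions of a gene and fitted over 17695 genes, only C7 passed among the 9 genes. Its sum over 5 regions was 19.2 and 20.8 CPM in Notch2_cKO, against 26.6 and 25 CPM in control (log2 -0.38, SE 0.11, edgeR adjusted p = 0.0321), where 8.29% of all genes were lower and 10.4% higher. That call was lost without Notch2_cKO replicate 1 (-0.31, edgeR adjusted p = 0.085), without control replicate 1 (-0.33, edgeR adjusted p = 0.305) and without control replicate 2 (-0.42, edgeR adjusted p = 0.136). Without Notch2_cKO replicate 2, the shallowest library, the sums of C1ra, C1s1 and Cr2 differed by -0.39, -0.24 and -0.37. With all libraries these were -0.28, -0.10 and -0.16. The sums of the genes other than C7 differed by -0.28 to 0.14 with all libraries.

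C1ra summed to 29.6 and 35.1 CPM in Notch2_cKO, against 38.7 and 38.7 CPM in control (log2 -0.28, edgeR adjusted p = 0.0851). Serping1 summed to 100.2 and 105.3 CPM in Notch2_cKO, against 112.7 and 113.6 CPM in control (log2 -0.14, edgeR adjusted p = 0.153). Clu, with regions in both directions, summed to 82.7 and 78.1 CPM in Notch2_cKO and 83.2 and 81.9 CPM in control (log2 -0.03, edgeR adjusted p = 0.784). The first pair of genes did not overlap between genotypes, and Clu did.

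The genes whose sums were most like C7 over the 4 libraries, by Euclidean distance of centred log2 levels, were Pcdh10 (0.0143), Klk10 (0.0235) and Oit1 (0.0241). With 4 libraries this picks out many genes, and 1621 of 17694 lay within a distance of 0.2.

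C1ra and C1s1 stand in a cluster with their near-copies C1rb and C1s2 over 123.5 kb. Of the 14 regions of these genes, 5 were lower (35.7%), with at least 1 at each of the 4 genes, and none was higher. Of all regions, 11.3% were lower and 12.4% higher, and the cluster was not tested as a set. C1rb fell at a region inside the gene, 9970 bp downstream of its start, with 3.27 and 2.31 CPM in Notch2_cKO, against 4.81 and 5.44 CPM in control (log2 -0.81, SE 0.20, edgeR adjusted p = 0.00639). The lower C1ra region lay 9679 bp downstream of the C1ra start. C1s2 fell 4165 bp upstream of its start, with 3.76 and 3.63 CPM in Notch2_cKO, against 9.03 and 8.14 CPM in control (log2 -1.21, SE 0.18, edgeR adjusted p = 4.67e-05), and by 0.29 on the log2 scale at 1215 bp upstream (edgeR adjusted p = 0.0485). The first of these C1s2 regions and the C1rb region passed with each library left out in turn, while the second C1s2 region did not pass without control replicate 2 (-0.35, edgeR adjusted p = 0.19), control replicate 1 (-0.26, edgeR adjusted p = 0.382) or Notch2_cKO replicate 1 (-0.19, edgeR adjusted p = 0.194). Among 31 regions of other genes within 200000 bp of C1ra, 5 were higher and 4 lower, the 4 being those of C1s1, C1rb and C1s2.

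C7 lies 183704 bp from C6, another component of the membrane attack complex. C6 had 5 regions, 2 of them lower, both inside the gene, and none higher. At the first (chr15:4734051-4734600) Notch2_cKO had 3.63 and 2.62 CPM and control 6.86 and 7.32 CPM (log2 -1.12, SE 0.19, edgeR adjusted p = 0.000231). At the second (chr15:4796751-4797350) Notch2_cKO had 3.37 and 2.46 CPM and control 6.06 and 6.14 CPM (SE 0.19 on the log2 scale, edgeR adjusted p = 0.000775). C9, the pore-forming component further along the chromosome, fell at 1 of 6 regions, with 2.17 and 2.23 CPM in Notch2_cKO, against 4.57 and 4.77 CPM in control (log2 -1.09, edgeR adjusted p = 0.000583). The 2 C6 regions and this C9 region passed with each library left out in turn. Among 27 regions of other genes within 200000 bp of C7, C6 among these genes, 2 were lower and none was higher. The 2 lower ones include the second C6 region above but not the first, which lies further from C7.

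Cd46 encodes another regulator that guards cells against C3b, in mice chiefly on sperm, and adjoins Cr1l. It rose inside the gene, with 20.6 and 21.9 CPM in Notch2_cKO, against 11.9 and 12.5 CPM in control (log2 0.79, SE 0.13, edgeR adjusted p = 0.000219; chr1:195092051-195092700). It passed with each library left out in turn, at 0.75 to 0.85. The 5 other Cd46 regions did not pass. Along the locus there were thus a higher Cd46 region, a Cr1l start with overlapping genotypes and a lower Cr2 start.

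**Figure D4:**
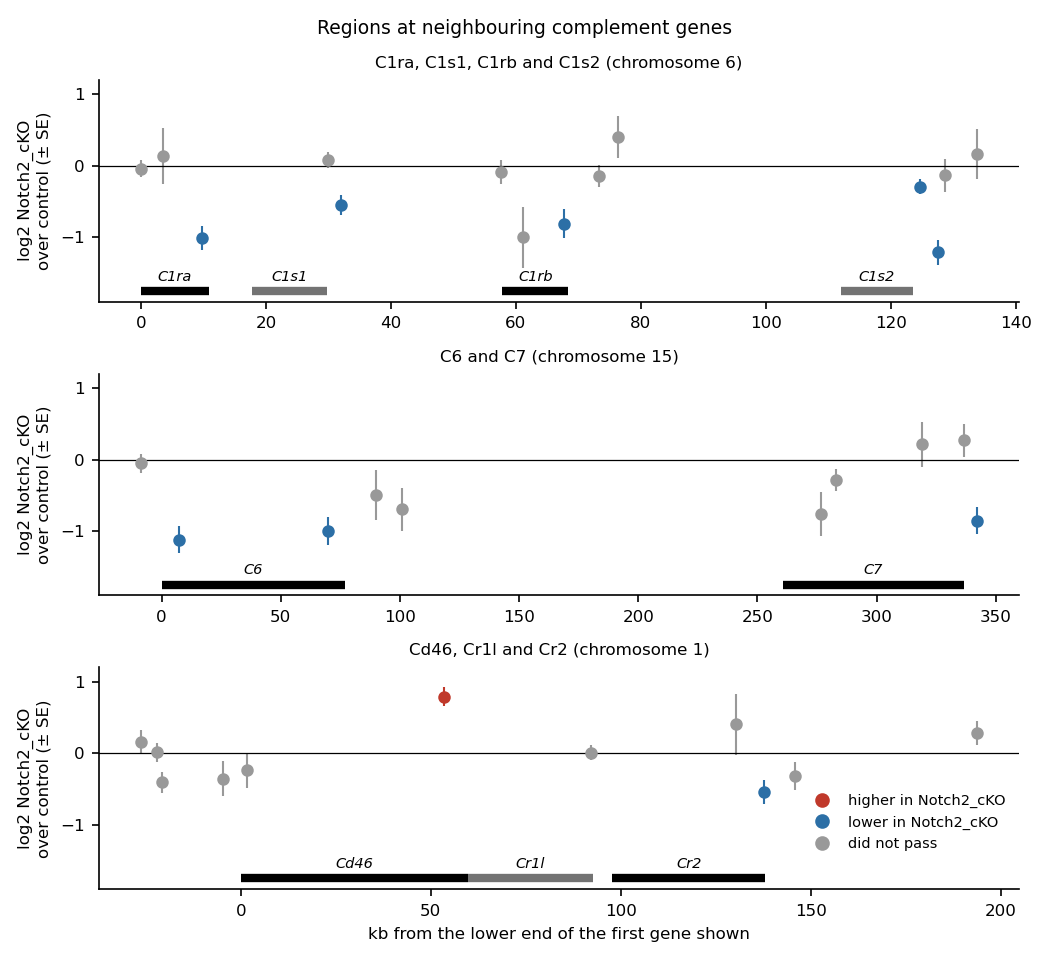
Log2 difference of Notch2_cKO over control (± SE) at regions of neighbouring complement genes, against distance in kb from the lower-coordinate end of the first gene shown, with genes as bars. Regions lower in Notch2_cKO (blue) occur at C1ra, C1s1, C1rb and C1s2, at C6 and C7, and at Cr2, and the only higher one (red) lies in Cd46.

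Around the remaining members the neighbours differed as follows. Within 200000 bp and assigned to other genes, 2 of 45 regions near Serping1 were higher and 2 lower, and near Clu 6 of 37 were higher and 1 lower. Near Cr1l 5 of 17 were higher and 1 lower, and near Cr2 3 of 16 were higher and 2 lower. Near C3 the counts were 3 of 34 higher and 2 lower, and near C4b 3 of 43 higher and 2 lower. The median log2 difference was 0.15 near Cr1l and ran from -0.07 to 0.07 near Serping1, Clu, Cr2, C3 and C4b.

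The wider complement list held 58 genes, of which 50 had a region. Of its 263 regions, 30 were higher and 36 lower (11.4% and 13.7%, beside 12.4% and 11.3% of all regions), with a median log2 difference of 0.01. Without control replicate 1 there were 17 higher and 23 lower, and without control replicate 2 there were 17 higher and 26 lower. In the classical pathway list 5 of 21 regions were lower and none higher, and these are the C1ra, C1s1, C1rb and C1s2 regions above. C1qa, C1qb, C2 and C4b, which encode recognition chains and substrates, had no region that passed. In the central and alternative pathway none of 6 regions of C3, Cfb and Cfd passed.

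In the terminal pathway 4 of 24 regions were lower, at C6, C7 and C9, and 1 was higher, at C8b. Soluble regulators had 6 of 34 lower and 2 higher, the lower ones including those of Serping1 and Clu. Membrane regulators had 17 of 91 higher and 8 lower, but 13 of the 17 belonged to Csmd1, a large gene for a membrane protein with complement-control domains. The rest of the list had 4 of 49 higher and 8 lower. Of these, Csmd2 held 1 higher and 4 lower, and Csmd3 held 3 lower. Cd55b held 2 higher, Cd46 1 higher and Susd4 1 lower. Receptors had 4 of 34 higher and 5 lower, with Cd93 holding all 4 of the higher ones and 4 of the lower ones, and Cr2 the other. Once control 2 was left out, soluble regulators had 1 region higher and 3 lower, membrane regulators 10 and 5, and receptors 1 and 3, while the classical and terminal lists had 4 lower regions each. C3ar1 and C5ar1, the receptors for the C3a and C5a fragments, had 1 region each, neither of which passed.

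**Figure D5:**
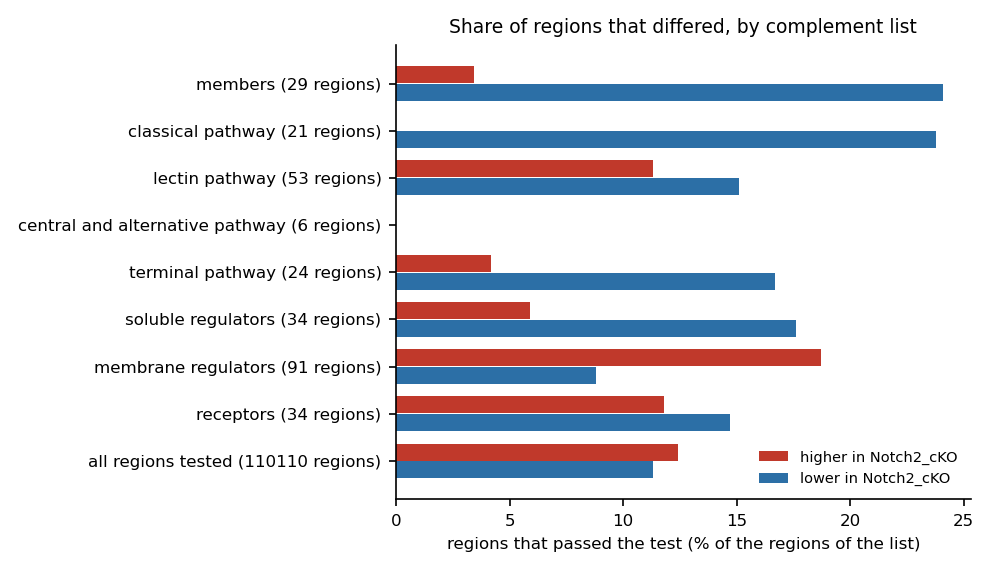
Percent of regions that passed the test, higher in Notch2_cKO (red) and lower in Notch2_cKO (blue), for the 29 member regions, 7 lists of complement genes and all 110110 regions. The members and the classical pathway have the largest blue bars, at 24.1% and 23.8%, and the membrane regulators the largest red bar, at 18.7%, mostly from Csmd1; the lists share genes with the members.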

How the data were processed

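ATAC-seq was measured in 4 libraries, 2 per genotype, each a pool of mice of its own per the labels. Tagmentation of 50000 cells took 30 min at 37 °C and was followed by 10 PCR cycles, per the labels' protocols. The submitters' processing notes name build mm10 and, among tools, Bowtie2 2.4.5, Trim Galore 0.6.7 with cutadapt, Picard 2.27.5, deepTools and SAMtools 1.14. A peak caller, or a shift of reads for the transposase, is not named in the sources used here.

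The authors deposited whole-number counts for 678058 windows of up to 300 bp, placed every 50 bp. The labels call them loess-normalized in csaw, but the library totals were up to 2.45 times apart and the values showed none of the gaps that rescaling leaves, so they were treated as counts. Merging gave 110110 regions with a median width of 600 bp, each represented by its best window. A midpoint inside several genes (911 regions) went to the shortest of 21900 protein-coding RefSeq genes, and distances run from that midpoint. Nothing fell under the minimum of 10 summed counts.

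Loess offsets (span 0.3) were computed over all regions, and edgeR's quasi-likelihood test compared the genotypes without a block. Benjamini-Hochberg adjustment of p-values ran over all regions, or over all 17695 genes for sums per gene, at 0.05. The SE was obtained by dividing the log2 difference by the root of edgeR's F value. The fit was tested on simulated data. Python 3.11.15 with pandas 2.3.3 and matplotlib 3.10.9 prepared regions and figures; fits ran in edgeR 4.0.16, DESeq2 1.42.0 and limma 3.58.1 under R 4.3.3, with version 1.17.8 of data.table.

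The 9 genes, the complement lists and the 8 marker lists (reticular fibroblast, follicular dendritic cell, B cell, T cell, macrophage and monocyte, lymphatic endothelial, blood endothelial and mural) were chosen with earlier results of these data known. Of each member gene, the region nearest an end or start, the most accessible region and the region of smallest p in each direction are given in full; of the wider list, up to 10 regions of smallest p, 1 per gene, and all regions of neighbouring near-copies. Other regions were named after their values were seen, and a few items are not reported here. Chi-square per region was 2.68 between the Notch2_cKO libraries and 1.88 between the controls, against 10 between Notch2_cKO 1 and control 1, so none was counted as a copy of another. Alternatives were other scalings, tests, filters and thresholds, a replicate block, another value per region, another distance to genes and each library left out. Exons, GC content and sequences away from gene starts were not analysed here, as no genome was used.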

Additional observations from a re-analysis of the deposited data

How the results depend on the processing

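The lower calls at C1ra, C7 (upstream), Serping1 (outside the gene) and Clu (inside its higher-coordinate end) passed under 15 of 15 alternative settings. The ranges were -1.09 to -0.95, -1.04 to -0.67, -1.22 to -0.66 and -1.06 to -0.93. The 15, here and above, include a fit without the count filter, which repeats the main values because no region fell under the minimum. They also include the crossed replicate block below, which was chosen after seeing the data. Over settings that leave out a library, member regions numbered 0 to 3 higher and 5 to 7 lower, gene sums 0 to 4 lower, all regions 8863 to 15575 higher and 8045 to 14671 lower, and wider-list regions 17 to 35 higher and 23 to 40 lower. The higher member region was lost (0 regions) under TMM scaling, median centring, DESeq2 and a threshold of 0.01. Under DESeq2 size factors and the replicate block the higher Clu region was lost and C3 region 3 passed instead (0.76 and 0.81). The C7 sum was lost (0 genes) under those, DESeq2 size factors and the replicate block. DESeq2 called 7051 regions higher and 5355 lower (wider list 8 and 16), and the threshold of 0.01 gave 8495 and 7079 (wider list 12 and 20).

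The replicate numbers are not stated to mark a shared litter, and same-numbered libraries deviated with a correlation of -0.179. With the number as a replicate block, 12211 regions were higher and 10946 lower, members 1 and 6. With the numbers crossed, a setting chosen after seeing the data, 18065 were higher and 16893 lower, members 3 and 8, wider list 46 higher, and 2 gene sums lower. Median centring shifted the median of all regions to -0.09 and put 40.5% of calls higher, against 52.5%; members were then 0 higher and 9 lower.

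Results that changed sign did not pass with all libraries. Under TMM scaling the C1s1 and Cr1l starts were -0.11 each, under DESeq2 size factors -0.10 each, and under median centring -0.19 each, with C1ra region 2 at -0.00 and Serping1 region 2 at -0.04. Crossed numbers gave -0.00 at Serping1 region 2. With a library left out, ranges that crossed 0 were -0.12 to 0.08 at the C1ra start, -0.12 to 0.28 at the C1s1 start, -0.10 to 0.24 at C4b, -0.12 to 0.59 at C7 region 3, -0.07 to 0.07 at the Cr1l start and -0.01 to 1.21 at Cr2 region 4. Serping1 regions 2, 4 and 5 gave -0.18 to 0.28, -0.05 to 0.01 and -0.01 to 0.84. Gene sums gave -0.24 to 0.05 for C1s1, -0.11 to 0.19 for C4b, -0.08 to 0.01 for Clu, -0.16 to 0.01 for Cr1l and -0.37 to 0.10 for Cr2. The cause was not tested. Regions under 1 CPM, such as C1ra region 2 (10 to 19 counts per library), allow only wide intervals, here -0.69 to 0.95. Where a group kept a lone library, the fit took its spread from the other genotype and from that shared across regions or genes.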

Other observations

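Genes of the lectin pathway, the arm that recognises sugars through collectins, held some of the wider list's smallest p-values. Of 53 regions, 6 were higher (11.3%) and 8 lower (15.1%), where 12.4% and 11.3% of all regions were. Colec10, which encodes collectin liver 1, fell at a region 49924 bp from the gene (1.04 and 1.77 CPM in Notch2_cKO, 5.05 and 4.77 CPM in control; log2 -1.93, SE 0.25, edgeR adjusted p = 1.1e-05). Colec11, its partner collectin, fell inside the gene (6.27 and 4.52 CPM in Notch2_cKO, 12.6 and 13.2 CPM in control; log2 -1.21, SE 0.17, edgeR adjusted p = 3.15e-05). A region 65963 bp from Mbl2, a mannose-binding lectin, rose (3.91 and 4.3 CPM in Notch2_cKO, 1.85 and 1.04 CPM in control; log2 1.50, SE 0.25, edgeR adjusted p = 0.000211). These 3 regions passed with each library left out in turn; over the pathway, 3 were higher and 7 lower without control replicate 2.

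Csmd genes encode large membrane proteins with complement-control domains. Csmd1 had 13 of 42 regions higher (31%) and none lower in Notch2_cKO. Csmd3 had 3 of 11 lower (27.3%) and none higher, and Csmd2 had 4 of 13 lower (30.8%) and 1 higher. Of all regions, 12.4% were higher and 11.3% lower. The region of smallest p on the wider list lay inside Csmd2, with 0.428 and 0.613 CPM in Notch2_cKO, against 3.04 and 3.26 CPM in control (log2 -2.68, SE 0.30, edgeR adjusted p = 2.89e-06), from 13 and 8 counts in Notch2_cKO. A region 12042 bp from Csmd3 had 0.498 and 0.533 CPM in Notch2_cKO, against 2.14 and 2.4 CPM in control (log2 -2.14, SE 0.31, edgeR adjusted p = 5.14e-05). These 2 regions passed with each library left out in turn, while Csmd1 had 6 regions higher without control replicate 1 and 6 without control replicate 2.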
